A study of Mus musculus with 12 samples.

Results

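Complement and coagulation factors are plasma proteins made mainly by hepatocytes, and 34 of their genes were followed here in the livers of mice with and without the nuclear receptor gene Ppara. The 34 genes were set by name, 15 of complement and 19 of coagulation, and were matched by symbol to the transcript clusters of the array, which are groups of short probes summarised into 1 value. A single cluster with that symbol alone was found for 30 of them, 13 of complement and 17 of coagulation, out of 22180 genes tested. Masp2 and Klkb1 share their clusters with another gene, and C3 and Cpb2 were not matched to a cluster by symbol, so these 4 are not analysed here.

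The arrays were Affymetrix MoGene 2.0 ST, 1 per animal, from 6 wild-type mice (WT) and 6 mice with a knockout of Ppara (Ppara KO). All were adult females of 12 to 14 weeks on the C57Bl/6 background, kept under 12 hours of light a day, and the labels give no time of collection, feeding state, litter or array batch. The labels name the genotype only as a Ppara KO and do not say which part of the gene was removed or whether controls were littermates. Values are on the log2 scale after RMA, which corrects background and brings arrays to a common distribution, and array medians ran from 4.13 to 4.17. Ppara itself did not separate the genotypes, with single animals from 7.71 to 8.14 in WT and from 7.81 to 8.16 in Ppara KO (exact 2-sided permutation p = 0.712), and the sources used here do not say where its probes lie relative to the deleted part. The mean of 10 hepatocyte markers, albumin included, ran from 11.35 to 11.50 in WT and from 11.28 to 11.53 in Ppara KO.

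As background, complement is a cascade that marks and perforates microbes. Mannose-binding lectins or antibody start it, C2 and C4 form an enzyme that cleaves C3, and the terminal proteins C5 to C9 assemble into a pore, the membrane attack complex. Coagulation is a second cascade of liver proteases that ends in thrombin, which turns fibrinogen into fibrin. Protein C, protein S and the serpins limit it, and plasmin dissolves the clot. PPARα is known for fatty acid oxidation genes and has also been linked to lower hepatic acute phase and fibrinogen expression when it is activated by drugs.

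Promoter sequences are shown for the fibrinogen chains, which belong to 1 protein, for the paired lectin genes Mbl1 and Mbl2, and for C6, the member with the largest difference. Each run is the 250 bases before the start of the gene in RefSeq, build GRCm38.p6, written 5′ to 3′ on the strand of the gene. Capitals mark GTTAAT, a core motif of the liver factor HNF1, or TTCNNNGAA, the core of a STAT site, on either strand. No printed match overlaps another.
Fga, chr3:83025903-83026152, plus strand: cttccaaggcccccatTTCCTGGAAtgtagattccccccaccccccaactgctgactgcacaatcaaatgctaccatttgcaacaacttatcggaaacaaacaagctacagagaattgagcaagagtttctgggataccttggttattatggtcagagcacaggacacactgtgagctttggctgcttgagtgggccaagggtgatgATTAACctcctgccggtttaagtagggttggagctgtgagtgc
Fgb, chr3:83049864-83050113, minus strand: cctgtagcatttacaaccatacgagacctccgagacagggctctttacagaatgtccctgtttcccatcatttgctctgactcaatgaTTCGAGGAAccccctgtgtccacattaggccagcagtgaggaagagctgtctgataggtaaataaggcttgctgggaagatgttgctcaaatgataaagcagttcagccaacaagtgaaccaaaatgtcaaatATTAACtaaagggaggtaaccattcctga
Fgg, chr3:83007474-83007723, plus strand: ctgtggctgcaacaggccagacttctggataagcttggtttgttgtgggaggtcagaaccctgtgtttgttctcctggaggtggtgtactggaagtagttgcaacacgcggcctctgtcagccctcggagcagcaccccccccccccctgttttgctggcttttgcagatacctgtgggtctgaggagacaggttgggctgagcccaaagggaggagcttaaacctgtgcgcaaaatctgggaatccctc
Mbl1, chr14:41151206-41151455, plus strand: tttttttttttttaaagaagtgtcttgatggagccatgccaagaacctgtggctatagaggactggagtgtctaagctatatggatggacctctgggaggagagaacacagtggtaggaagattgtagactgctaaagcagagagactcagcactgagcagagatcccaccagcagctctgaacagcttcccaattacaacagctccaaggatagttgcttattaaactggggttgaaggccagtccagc
Mbl2, chr19:30232678-30232927, plus strand: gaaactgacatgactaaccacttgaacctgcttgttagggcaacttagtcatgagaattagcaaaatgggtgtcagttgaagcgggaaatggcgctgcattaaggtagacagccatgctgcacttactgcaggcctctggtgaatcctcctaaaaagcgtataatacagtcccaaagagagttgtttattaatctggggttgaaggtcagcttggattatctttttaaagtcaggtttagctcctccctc
C6, chr15:4726960-4727209, plus strand: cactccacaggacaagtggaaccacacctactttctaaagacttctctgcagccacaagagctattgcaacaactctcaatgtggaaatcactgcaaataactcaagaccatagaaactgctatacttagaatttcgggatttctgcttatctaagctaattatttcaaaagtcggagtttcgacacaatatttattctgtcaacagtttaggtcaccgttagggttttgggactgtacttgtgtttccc

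Promoter entries were found for 22 of the 30 measured members. Within these 250 bases GTTAAT occurred in 6 of the 22 (C8a, C8b, F13b, Fga, Fgb and Hc), against 6.43% of the 32851 promoter entries of the table. None of the 6 called members with an entry had it, and C2 and Proc had no entry. At a share of 6.43% a count of 0 in 6 cannot tell called from uncalled members. Member counts are of genes with a match in any entry, whereas the percentages are of single entries, and C8g had more than 1 entry. TTCNNNGAA occurred in 5 of the 22 (C8a, F9, Fga, Fgb and Pros1), against 7.02% of all entries. Fga and Fgb held both motifs, whereas the window of Fgg held neither. No member window held the E-box CACGTG (6.02% of all entries), the D-box TTATGTAA of the PAR bZIP factors such as DBP (0.819%), the C/EBP palindrome TTGCGCAA (0.164%) or DR1, a direct repeat of AGGTCA with 1 base between the copies (0.0335%). These are letter matches on both strands and not binding sites.

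Livers of Ppara KO mice had more mRNA of C6, a terminal complement protein (2.10-fold), and of C2, the protease of the classical and lectin pathway enzyme (1.54-fold), and less of Mbl1, a mannose-binding lectin (1.57-fold). Smaller differences were found for the anticoagulant genes Pros1 (1.28-fold higher) and Proc (1.21-fold higher), for F5 (1.15-fold higher), and for the fibrinogen chain gene Fgg (1.19-fold lower) and the C8 chain gene C8g (1.17-fold lower). These 8 of the 30 measured members were called, meaning an adjusted p under 0.05 in a limma fit over all 22180 genes, and the other 22 were not. Among complement genes 2 rose and 2 fell, and among coagulation genes 3 rose and 1 fell.

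The share called was 26.7% of the measured members, against 10.2% of all genes tested (4.46% higher and 5.77% lower). Members are bright on these arrays, and among the 2981 genes with a mean at or above 7.46, the lowest mean of a measured member, 23.7% were called, so the share of members called lay near that background. The median difference of the 30 was 0.013 and the median size of a difference 0.14 on the log2 scale, against 0.0090 and 0.10 over all genes. In each of the 8 called members the 6 WT values did not overlap the 6 Ppara KO values, and in the other 22 measured members they did overlap. Over all genes 6.51% had no overlap. Neither this share nor the median size of a difference was worked out for the 2981 bright genes alone. The split by direction moved when each array was centred on the mean of a list of other plasma protein genes. With that centring, 8 members were higher and 1 was lower. Of all calls 75.6% were then higher against 43.6% without it, as the median of all genes moved from 0.0090 to 0.094. The list mean was 10.98 in WT and 10.90 in Ppara KO, while the median difference of the list was 0.00018. That mean includes the strongly lower Serpina7 (-2.28), and the centring adds the same amount to every gene's difference. Centring on array medians gave 5 members higher and 3 lower, and quantile normalization 4 and 3.

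**Figure D1:**
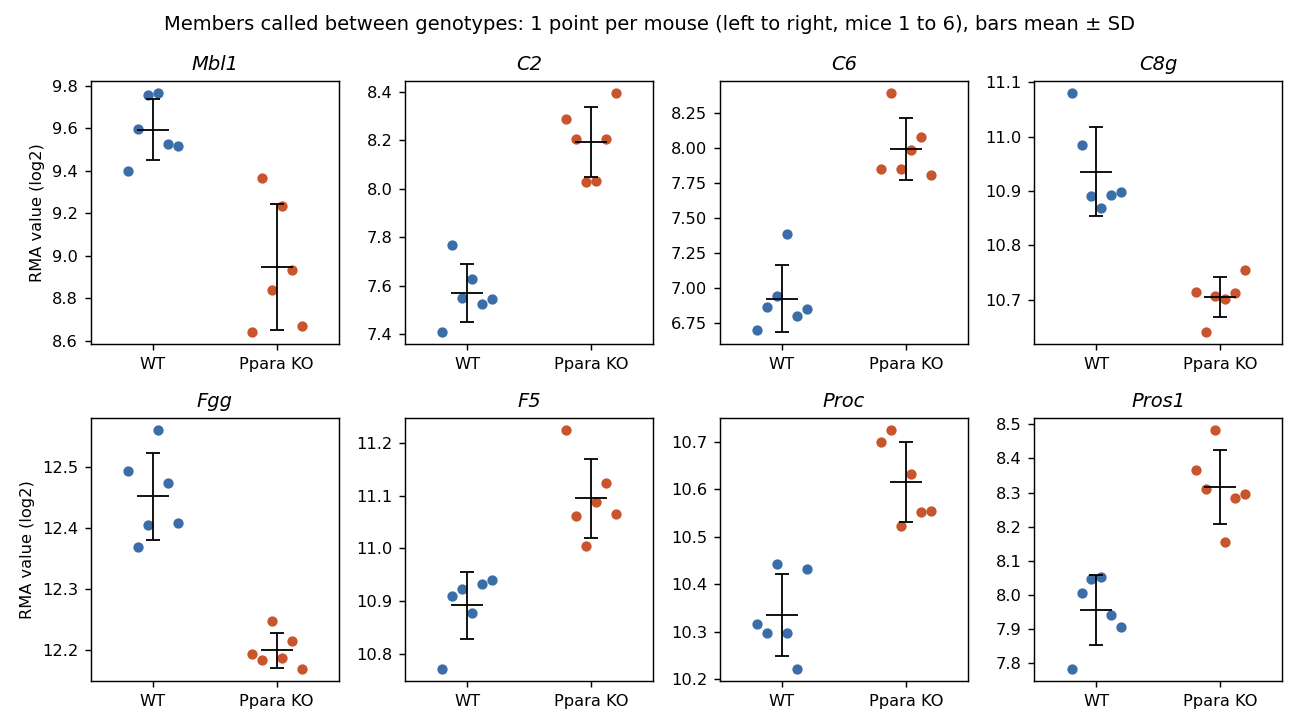
Values of the 8 called members in each mouse, on the RMA log2 scale, with WT in blue, Ppara KO in orange, and black bars for mean ± SD (n = 6 each); each panel has its own axis, which does not start at 0. In every panel the points of one genotype lie apart from those of the other.

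C6 had the largest difference among the members. Its log2 values ran from 6.70 over a median of 6.85 to 7.39 in WT and from 7.81 over 7.92 to 8.39 in Ppara KO. The highest WT animal, WT 4, stood apart from the other WT animals, which reached 6.94, and still lay below all Ppara KO animals. The difference was 1.07 ± 0.12 (log2 ± SE, 95% interval 0.82 to 1.33, limma adjusted p = 4.04e-05).

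The other terminal genes did not follow C6 in size. Hc, the mouse gene of C5, differed by 0.016 (95% interval -0.16 to 0.19), C9 by 0.035 (-0.16 to 0.23), C8b by 0.13 (-0.067 to 0.34) and C8a by 0.23 (-0.046 to 0.50), and none was called. The change of C6 exceeded that of its relatives C8a by 0.84 ± 0.056, C8b by 0.94 ± 0.067 and C9 by 1.04 ± 0.083 (log2 ± SE, exact 2-sided permutation adjusted p = 0.00433 in each case). These comparisons belong to 10 pairs of genes of a shared protein or family, which were set after the values had been seen, and p-values were adjusted over the 10.

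C8g, which encodes the lipocalin-like gamma chain of C8, fell. It ran from 10.87 over 10.90 to 11.08 in WT and from 10.64 over 10.71 to 10.75 in Ppara KO, a narrow but complete separation. The difference was -0.23 ± 0.059 (limma adjusted p = 0.0205). The alpha and beta chain genes C8a and C8b had positive differences without a call, and the change of C8g differed from both, by 0.46 ± 0.17 from C8a (exact permutation adjusted p = 0.0309) and by 0.37 ± 0.12 from C8b (adjusted p = 0.0216). C8a and C8b did not differ detectably from each other (0.095 ± 0.070, adjusted p = 0.216). The C8g call ended when the arrays were centred on the mean of the other plasma protein genes (difference -0.15, limma adjusted p 0.152), which adds the same amount to the difference of every gene.

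On the lectin side, Mbl1 ran from 9.40 over 9.56 to 9.77 in WT and from 8.64 over 8.88 to 9.37 in Ppara KO. The Ppara KO animals were spread widely, with 2 and 4 at 9.37 and 9.23 and the others between 8.64 and 8.93. The difference was -0.65 ± 0.12 (limma adjusted p = 0.00306). Mbl2, the gene of the related lectin MBL-C, was not called (0.21 ± 0.081, adjusted p 0.131), and its groups overlapped, from 9.14 to 9.47 in WT and from 9.36 to 9.73 in Ppara KO. The change of Mbl1 minus that of Mbl2 was -0.85 ± 0.14 (exact permutation adjusted p = 0.00433), and the within-animal difference did not overlap between genotypes. Like the pairs of C8 and fibrinogen chains, this pair is among the 10 set after the values had been seen. Masp1, a protease bound to these lectins, differed by -0.0038 (95% interval -0.15 to 0.14).

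C2 ran from 7.41 over 7.55 to 7.77 in WT and from 8.03 over 8.21 to 8.40 in Ppara KO. All WT animals lay below all Ppara KO animals. The difference was 0.62 ± 0.081 (limma adjusted p = 0.000161). C4b, whose product pairs with that of C2 in the enzyme, had -0.23 ± 0.084 without a call (adjusted p 0.108). It ran from 10.72 to 11.11 in WT and from 10.41 to 10.80 in Ppara KO, so the groups overlapped. C4b has a near-identical neighbour in C4a, and the probes were not checked for matches to both. Cfb, the protease of the alternative pathway, differed by -0.043 (95% interval -0.18 to 0.094), and Cfi, which inactivates C3b and C4b, by -0.015 (-0.15 to 0.12).

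**Figure D2:**
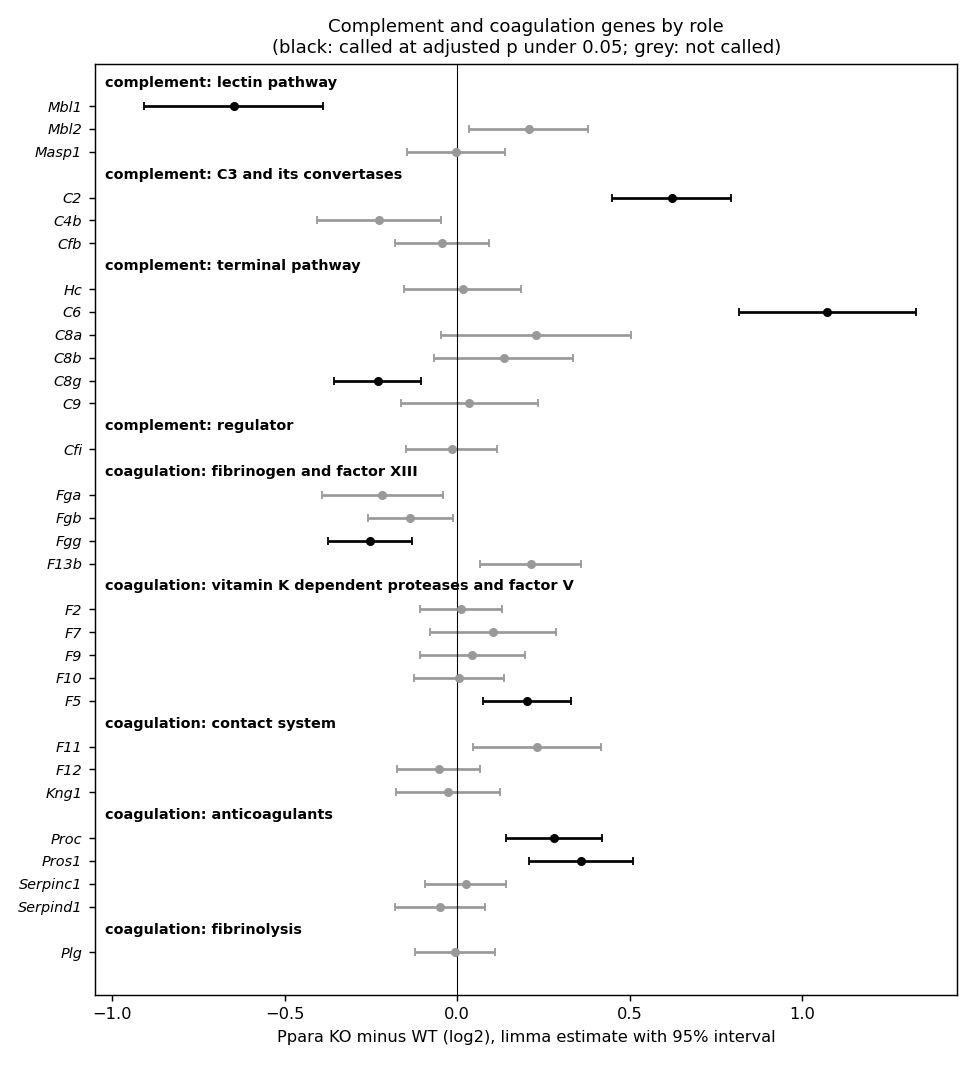
Difference of each of the 30 measured members, Ppara KO minus WT on the log2 scale, with its 95% interval from limma, grouped by role; black marks called genes and grey the others. C6 at 1.07 and Mbl1 at -0.65 lie at the ends, and the proteases F2, F9 and F10 lie near 0.

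Fibrinogen is a hexamer of alpha, beta and gamma chains, and the gamma chain gene Fgg fell. Its values ran from 12.37 over 12.44 to 12.56 in WT and from 12.17 over 12.19 to 12.25 in Ppara KO. All Ppara KO animals lay within a narrow band below the lowest WT animal. The difference was -0.25 ± 0.057 (limma adjusted p = 0.00992). Fga (-0.22 ± 0.082, adjusted p 0.116) and Fgb (-0.14 ± 0.058, adjusted p 0.165) also had negative differences without a call, and for both the groups overlapped. Without WT 2, its lowest WT animal, Fga was called (-0.27, adjusted p 0.0445). With a variance prior that follows the intensity, both Fga (adjusted p 0.0485) and Fgb (adjusted p 0.0364) were called.

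The fall of Fgg exceeded the difference of Fgb in size by 0.12 ± 0.013 (exact permutation adjusted p = 0.00433), since the within-animal difference between these chains varied little, with an SD of 0.015 in WT and 0.028 in Ppara KO. Fgb was the brighter chain (WT mean 12.65 against 12.45 for Fgg), and whether such bright values are compressed was not tested. Fgg and Fga did not differ detectably in their change (0.036 ± 0.059, adjusted p = 0.556), nor did Fga and Fgb (-0.080 ± 0.057, adjusted p = 0.216). The Fgg call ended when arrays were centred on the mean of the other plasma protein genes (-0.17, limma adjusted p 0.0727). This centring raised all differences alike, and the list includes the strongly lower Serpina7. F13b, the carrier chain of factor XIII, had 0.21 ± 0.068 without a call (adjusted p 0.0627), and was called without Ppara KO 5 (0.24, adjusted p 0.0449).

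None of the vitamin K dependent procoagulant genes was called. F2, the prothrombin gene, differed by 0.011 (95% interval -0.11 to 0.13), F10 by 0.0054 (-0.13 to 0.14), F9 by 0.044 (-0.11 to 0.20) and F7, the protease that tissue factor activates, by 0.10 (-0.078 to 0.29). F5, the cofactor of factor Xa, was called by a small margin. It ran from 10.77 over 10.92 to 10.94 in WT and from 11.005 over 11.08 to 11.23 in Ppara KO, without overlap, with a difference of 0.20 ± 0.060 (limma adjusted p = 0.0448). The call ended without any 1 animal other than Ppara KO 3, with adjusted p-values from 0.0476 to 0.0977 over the 12 omissions, and the difference stayed between 0.18 and 0.22.

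Anticoagulant genes split into called and uncalled pairs. Pros1, the gene of protein S, ran from 7.78 over 7.97 to 8.05 in WT and from 8.15 over 8.30 to 8.48 in Ppara KO, and rose by 0.36 ± 0.071 (limma adjusted p = 0.00437). Proc, the gene of protein C, for which protein S is the cofactor, ran from 10.22 over 10.31 to 10.44 in WT and from 10.52 over 10.59 to 10.73 in Ppara KO, and rose by 0.28 ± 0.065 (adjusted p = 0.0117). No WT animal reached the Ppara KO range of either gene. Serpinc1, the antithrombin gene, differed by 0.024 (95% interval -0.093 to 0.14) and Serpind1, the gene of heparin cofactor II, by -0.050 (-0.18 to 0.082).

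In the contact system, which starts clotting on charged surfaces, 0 of 3 measured genes were called by limma, and 1 had an unadjusted p under 0.05. That gene, F11, had 0.23 ± 0.087 (adjusted p 0.113), from 8.84 to 9.12 in WT and from 8.87 to 9.40 in Ppara KO, and was called without Ppara KO 3 (0.29, adjusted p 0.0304). F12 differed by -0.053 (95% interval -0.17 to 0.066) and the kininogen gene Kng1 by -0.027 (-0.18 to 0.12), and Kng1 has a close copy in Kng2. Plg, the plasminogen gene, differed by -0.0068 (-0.12 to 0.11). Over the 22 members without a call the differences ran from -0.23 to 0.23, and for 15 of them the 95% interval lay within 0.32 either way on the log2 scale. The widest bound was that of C8a, which allows a change of up to 1.42-fold.

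**Figure D3:**
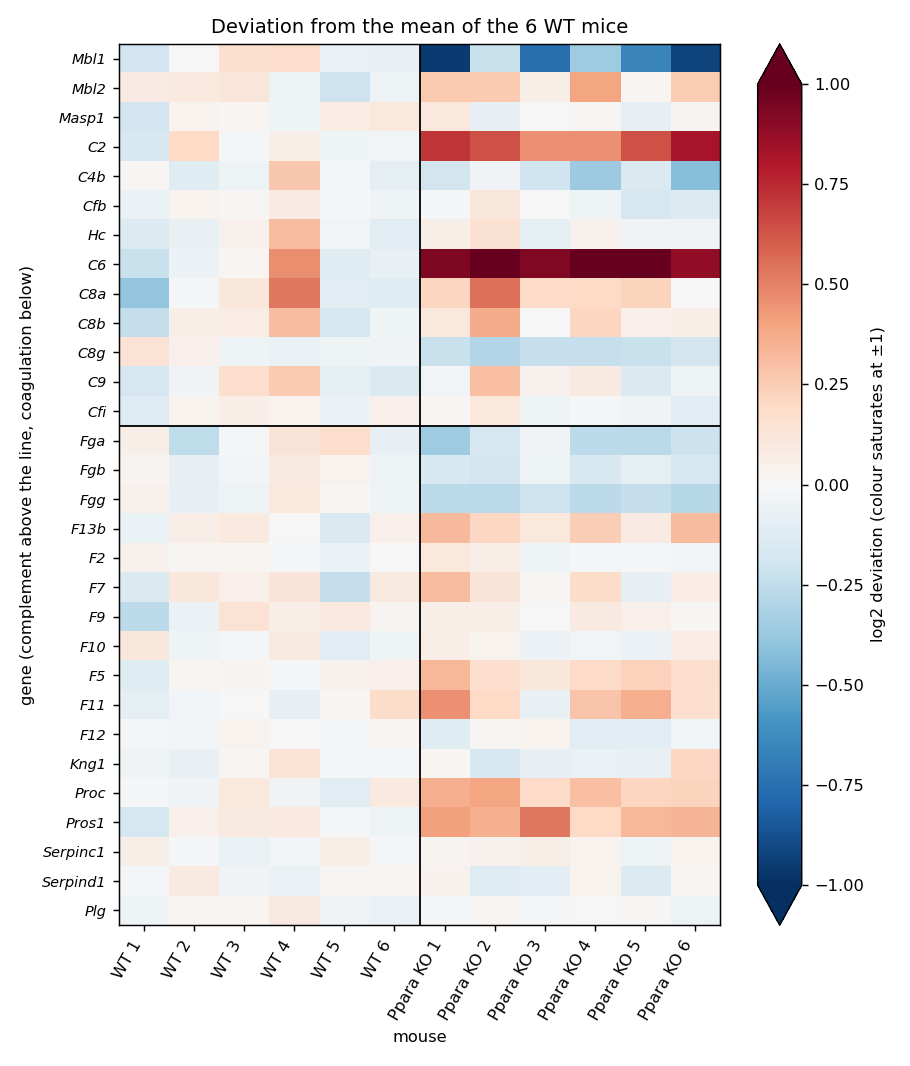
Each row is a member and each column a mouse, and the colour gives the deviation from the mean of the 6 WT mice on the log2 scale (red higher, blue lower, saturating at ±1). The rows of C6 and C2 are red and the row of Mbl1 is blue across the 6 Ppara KO mice, while most coagulation rows stay pale.

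Several complement genes varied together between animals of 1 genotype, a pattern singled out after the values had been seen. Hc, C6, C8a, C8b and C9 were all highest in WT 4 among WT animals and lowest in WT 1, and all highest in Ppara KO 2 among Ppara KO animals. C8a, for example, was at 9.56 in WT 1, 10.48 in WT 4 and 10.50 in Ppara KO 2. C8g ran the other way in these animals, highest of the WT in WT 1 (11.08), lowest in WT 4 (10.87), and lowest of the Ppara KO in Ppara KO 2 (10.64). Over the 13 complement genes WT 1 was the lowest WT animal in 10, WT 4 the highest in 8, and Ppara KO 2 the highest Ppara KO animal in 9. Over the 17 coagulation genes the same animals held these places in 4, 6 and 2. The mean of the 13 genes was 9.84 in WT 1, 10.15 in WT 4 and 10.23 in Ppara KO 2, and between 9.90 and 10.08 in the other 9 animals. WT 1 and WT 4 were also the lowest and highest WT animals for the mean of the 17 coagulation genes (10.79 and 10.87) and of the hepatocyte markers (11.35 and 11.50). These means peaked in Ppara KO 1 (10.92) and Ppara KO 5 (11.53) among Ppara KO animals. The mean of the other plasma protein genes was highest in WT 4 (11.01) and Ppara KO 2 (10.94), and lowest of the WT in WT 3 (10.97).

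For fibrinogen, Fga, Fgb and Fgg were all lowest in WT 2 among WT animals and all highest in Ppara KO 3 among Ppara KO animals, where Fga was at 11.55 and 11.78. The highest WT animal was WT 4 for Fgb and Fgg, as for the terminal complement genes, and WT 5 for Fga (11.98). The mean of 26 acute phase genes was also highest in Ppara KO 3 of its genotype (10.52), and in WT 4 of the WT (10.43). It was lowest in WT 5 (9.70), the animal with the highest Fga, ahead of WT 2 (9.82), and in Ppara KO 6 (9.57). Whether this list had a part in the fibrinogen values was not tested.

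**Figure D4:**
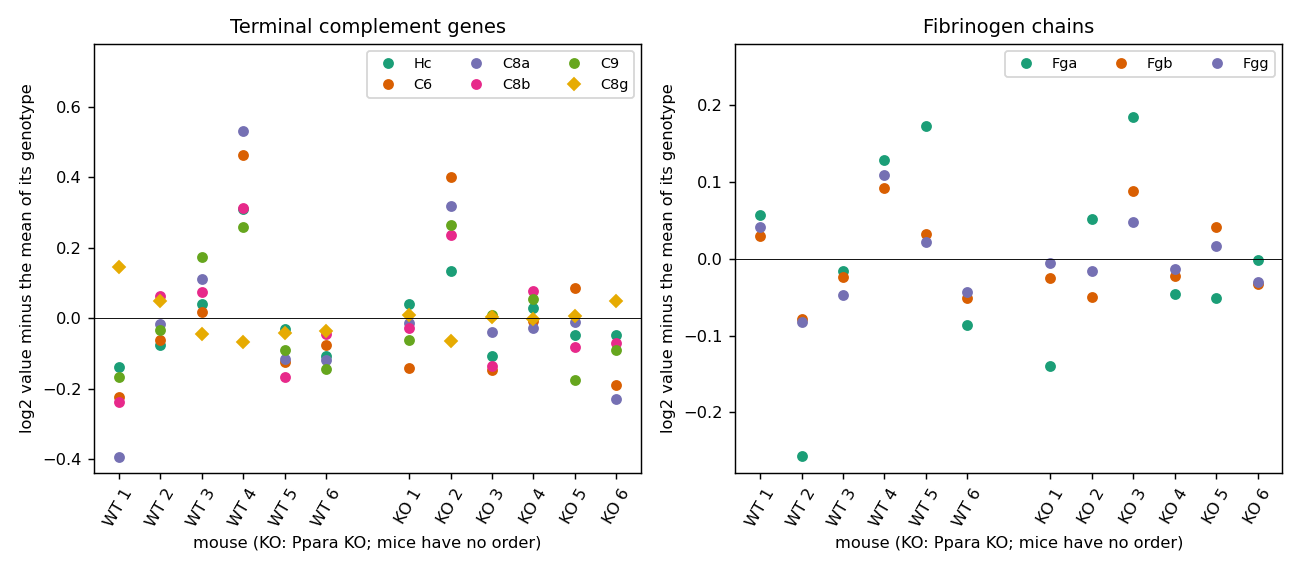
Values of 6 terminal complement genes (left) and 3 fibrinogen chain genes (right) in each mouse, as log2 deviation from the mean of the mouse's own genotype; the order of mice carries no meaning. On the left the circles lie high in WT 4 and Ppara KO 2 and low in WT 1 while the diamonds of C8g do the reverse, and on the right all chains are lowest in WT 2 among WT mice.

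Of 33 other complement genes measured 1 rose and 1 fell, which is 6.06% against 10.2% of all genes, with a median difference of -0.0044. For this list and those below, 10.2% covers genes of every level, and 23.7% of the genes with a mean at or above 7.46 were called. No share was worked out for genes matched in level to a list. Susd4, which encodes a membrane inhibitor of complement, rose by 1.23 ± 0.12 (limma adjusted p = 1.22e-05), from 5.01 to 5.59 in WT and from 6.23 to 6.84 in Ppara KO. C5ar2, a second receptor of the C5 fragment, fell by 0.28 (SE 0.075, adjusted p 0.0257), a call that ended without any 1 of WT 1, 2, 3 and 5 and Ppara KO 1 and 5 (adjusted p up to 0.0578). The liver products Vtn (-0.0057), Serping1 (0.0098) and Clu (-0.0031), all regulators of complement, were not called.

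Of 29 other genes of coagulation and fibrinolysis 0 rose and 4 fell, which is 13.8% against 10.2% of all genes, with a median difference of 0.0022. S100a10, whose product helps plasminogen to bind the cell surface, fell by 0.79 (SE 0.090, limma adjusted p 4.71e-05) with values from 9.32 to 9.51 in WT and from 8.34 to 8.89 in Ppara KO. Gas6, a vitamin K dependent relative of protein S, fell by 0.64 (SE 0.065), opposite in direction to Pros1. The fibrinogen-like gene Fgl1 fell by 0.44 (SE 0.11), and Serpinf2, the main plasmin inhibitor, by 0.23 (SE 0.056). The Serpinf2 call ended with arrays centred on the mean of the other plasma protein genes (-0.15, limma adjusted p 0.107), and so did that of C5ar2 (-0.20, adjusted p 0.120). Both moved by the shift that this centring gives to every gene. Among uncalled genes of this list the brightest were Pzp (0.016), Serping1 and Hrg (0.14), and the groups of Hrg did not overlap.

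In the vitamin K cycle and the secretion of factors 2 of 10 genes rose and 0 fell, which is 20% against 10.2% of all genes. Lman1, whose product carries factors V and VIII out of the endoplasmic reticulum, rose by 0.29 ± 0.069 (limma adjusted p = 0.0151) beside the small rise of F5. Vkorc1l1, a relative of the vitamin K reductase, rose by 0.33 ± 0.089, but the call ended without any 1 of WT 1, 3 and 6 and Ppara KO 1 (adjusted p 0.0503 to 0.0614). Vkorc1 (-0.072), the carboxylase gene Ggcx (-0.12) and Furin (-0.076) were not called.

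Of 21 liver transcription factor genes 5 rose and 2 fell, which is 33.3% against 10.2% of all genes. Dbp (3.49 ± 0.20), Tef (2.21 ± 0.11) and Hlf (0.69 ± 0.086), the PAR bZIP factors of the circadian clock, rose, as did Cebpa (0.38 ± 0.064) and Cebpb (0.37 ± 0.099), which act on many plasma protein genes. Foxa2 fell by 0.48 (SE 0.11) and Esr1, the oestrogen receptor gene, by 0.51 (SE 0.13). Hnf4a, a main activator of coagulation genes in the liver, had 0.12 ± 0.071 without a call, and Stat3, which carries the interleukin-6 signal, -0.29 ± 0.12 without a call. Clock genes differed with genotype, and their part in the values of the factors was not tested.

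In the acute phase and interleukin-6 list 1 of 26 genes rose and 2 fell, which is 11.5% against 10.2% of all genes. Il6ra, the receptor gene, rose by 0.36 (SE 0.075), and Lrg1 fell by 0.73 (SE 0.19) together with Fgl1. The bright members Hpx (0.049), Hamp (0.20) and Itih4 (0.0061) were not called. Among 24 other secreted plasma protein genes of hepatocytes 1 rose and 1 fell, which is 8.33% of that list. Serpina6, which encodes corticosteroid-binding globulin, rose by 0.32 (SE 0.082), a call that ended without WT 3 (adjusted p 0.0510), and Serpina7, which encodes thyroxine-binding globulin, fell by 2.28 (SE 0.25). Alb (-0.031), Ahsg (-0.00073) and Apoa2 (0.011) were not called. The median differences of these lists were -0.090 and 0.00018. Their list means in WT were 10.07 and 10.98, and among genes with a mean at or above 7.46 the share called was 23.7%.

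**Figure D5:**
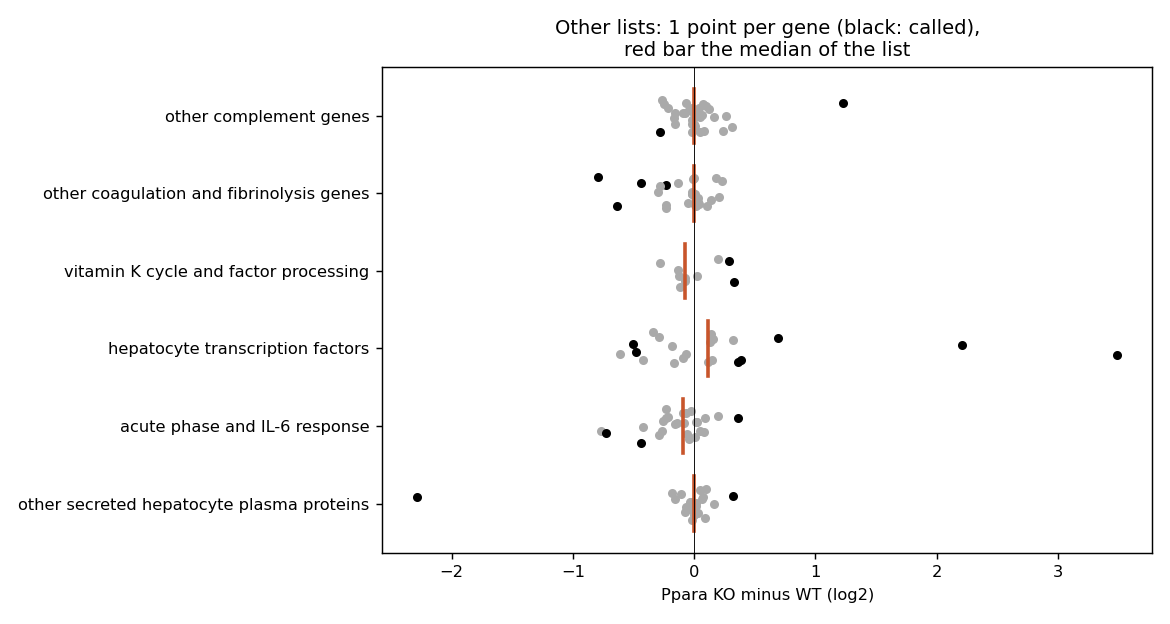
Each point is a gene of one of 6 lists around the factors, placed by its difference, Ppara KO minus WT on the log2 scale; black points were called, grey ones were not, and the red bar is the median of the list. Medians lie between -0.090 and 0.12, and the far points are Dbp (3.49), Tef (2.21) and Serpina7 (-2.28).

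Markers of other cells were examined beside these values, since bulk tissue cannot tell fewer cells of a type from less RNA per cell. For comparison with the counts below, 10.2% of all genes were called. Of 11 macrophage markers 1 was called, Cd5l, which rose (0.45 ± 0.13), and 3 had an unadjusted p under 0.05. Marco had 0.72 ± 0.27 without a call, and its groups did not overlap (6.04 to 6.22 in WT, 6.28 to 8.39 in Ppara KO). The median difference of the macrophage list was 0.085. Its mean ran from 7.42 to 7.85 in WT and from 7.66 to 8.39 in Ppara KO, the highest being Ppara KO 2. Endothelial, stellate, neutrophil, platelet and erythroid markers had 0 limma calls among 10, 10, 8, 6 and 2 measured genes, and 3, 4, 0, 0 and 0 of these had an unadjusted p under 0.05. Of 8 adipocyte markers 3 were called, all lower (Plin4, Lipe and Adipoq), and 7 of the 8 had an unadjusted p under 0.05. The median difference of the adipocyte list was -0.80, and Retn (-1.36), Fabp4 (-1.34) and Cidec (-1.10) had no call. Its list mean was 5.37 for WT 1, 6.13 for WT 3 and 6.12 for WT 5. It was 4.50 to 4.84 for the other 3 WT animals, and 4.28 to 4.56 over the Ppara KO animals. Bile duct markers fell in 3 of 6 (Prom1, Krt19 and Sox9), with list means from 4.33 to 4.70 in WT and from 4.01 to 4.33 in Ppara KO. The part of these cells in the members' values was not tested. Krt19 was also the 1 call among 6 mesothelial markers, and of 7 lymphocyte markers 1 rose, Cd8a (0.46 ± 0.10). Of 10 hepatocyte markers Cyp2e1 (0.24) and Pck1 (0.30) rose and G6pc (-0.61) fell.

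With the 3 WT animals of the highest adipocyte list means (1, 3 and 5) left out, C6 (0.96, limma adjusted p 0.00443), C2 (0.54, adjusted p 0.0108) and Mbl1 (-0.68, adjusted p 0.0315) were still called. Pros1 (0.33, adjusted p 0.0592), Proc (0.27, adjusted p 0.0923), Fgg (-0.25, adjusted p 0.0991), C8g (-0.21, adjusted p 0.139) and F5 (0.19, adjusted p 0.230) were not. With all animals the differences were 1.07 for C6, 0.62 for C2 and -0.65 for Mbl1. They were 0.36 for Pros1, 0.28 for Proc, -0.25 for Fgg, -0.23 for C8g and 0.20 for F5. Only 3 WT animals remained in the smaller fit, and 1008 genes were called in all against 2268. The omitted animals were chosen from these same data, so the part of adipocytes in these values was not tested.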

How the data were processed

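Liver RNA of 12 mice, 6 WT and 6 Ppara KO, was measured on 1-colour arrays. The deposited log2 values were made by the authors with RMA and Partek, per the submitters' processing notes. Versions, build and annotation are not given in the sources used here. Of 41345 clusters, 23521 had 1 gene symbol, 1814 several and 16010 none in the platform annotation. The cluster with the highest mean stood for a gene, and each measured member had 1 cluster. The number of arrays limits the precision (median SE of a difference 0.093).

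All 22180 genes were fitted with limma 3.58.1 (R 4.3.3; lmFit and eBayes, 2-sided, no covariate), with Benjamini-Hochberg adjustment over all genes and calls at an adjusted p under 0.05. The fit was tested on simulated data. Pairs of members were compared by exact 2-sided permutation of within-animal differences (scipy 1.17.1). The smallest p that 6 against 6 can give is 0.00216.

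The rule names Ppara, all members, and per further list up to 5 called genes with the smallest adjusted p and 3 uncalled genes with the highest level; further genes named were chosen after their values were seen. Members and lists were chosen with earlier results of these data known. Alternatives covered the variance prior, weights, scaling, filters, thresholds, clusters, a replicate block and omitted animals.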

Additional observations from a re-analysis of the deposited data

Results flagged for a closer look

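Of 130 groups of 6 values looked at, 9 had a highest or lowest animal far from the other 5 by Dixon's criterion, which chance gives for about 5% of groups. WT 4 was the highest for C6 (7.39, others 6.70 to 6.94), C4b (11.11, others 10.72 to 10.85) and Prox1 (9.43, others 8.84 to 8.99), and the lowest for Alb (13.14, others 13.19 to 13.22). WT 1 was the lowest for F5 (10.77, others 10.88 to 10.94), and WT 2 the highest for Dbp (7.09, others 5.99 to 6.33). Among Ppara KO animals, 5 was the lowest for Serpinc1 (11.72, others 11.80 to 11.83), 3 the highest for C5ar2 (6.71, others 6.48 to 6.54) and 6 the highest for Vkorc1l1 (8.06, others 7.55 to 7.71).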

How the results depend on the processing

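C6, C2 and Mbl1 were called under all 27 alternatives run on them, and Pros1 under 26. The other called members held their call under fewer, Fgg under 23, Proc under 22, C8g under 21 and F5 under 9. Ppara was called under none of its 27. Of the 22 uncalled members, 16 were called under none of 27, and Mbl2, C4b, Fga, Fgb, F13b and F11 under 1 to 5. Over the 1755 combinations of gene and alternative run (Ppara, the measured members and the genes taken by rule from the further lists) no called difference changed sign. Cebpb, Esr1 and the cell type markers were not rerun, apart from those also taken by that rule. The counts of 2 complement genes higher, 2 lower, 3 coagulation genes higher and 1 lower moved as follows. The intensity trend gave 3 complement genes lower and 4 coagulation genes higher and 3 lower. Centring on the plasma protein list, which holds the strongly lower Serpina7, gave 3 complement genes higher and 1 lower, 5 coagulation genes higher and 0 lower, and 2366 genes higher and 764 lower in all (989 and 1279 without it). A filter at a mean log2 value of 5 gave 3 complement genes lower and 5 coagulation genes higher and 3 lower, and one at the median gave 3 complement genes lower and 4 coagulation genes higher, both with fewer genes to adjust over. Quantile normalization and the use of all clusters each gave 2 coagulation genes higher. An adjusted p under 0.01 left 1 complement gene lower, 1 coagulation gene higher and 1070 genes in all; a minimum change of 0.32 (log2) left 1 complement gene lower, 1 coagulation gene higher and 0 lower. Leaving out WT 1, 3 and 5 left 1 complement gene lower, 0 coagulation genes in either direction and 1008 genes in all, and leaving out WT 1, 2 and 3 left 1 complement gene lower, 1 coagulation gene higher, 0 lower and 882 in all, with fewer animals. Omitting 1 animal at a time gave 2 to 2 complement genes higher, 2 to 2 lower, 2 to 4 coagulation genes higher, 1 to 2 lower (2 without WT 2) and 1817 to 2130 calls in all, against 2268 with all animals. The labels do not say whether the mouse numbers pair the animals. Deviations of WT and Ppara KO mice with the same number correlated from -0.047 to 0.043, which cannot settle whether they share a litter or batch. With the numbers as a replicate block 1 complement gene fell and 1 coagulation gene rose, as the calls of C8g, Proc and F5 ended. Bright transcripts such as the fibrinogen chains may be compressed, which was not tested.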
